A study of Mus musculus with 20 samples.

Results

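The genes described here encode the MHC class I antigen presentation pathway: the heavy chains H2-K1, H2-D1 and H2-T23, the peptide transporter subunits Tap1 and Tap2, the loading factor Tapbp, the immunoproteasome subunits Psmb8, Psmb9 and Psmb10, and the transactivator Nlrc5. Of these 10 genes, 8 had a probe set that the platform annotation gives to a single gene symbol, out of 17097 genes with such a probe set on the array, and the probe set of highest mean level was taken for each. Tap1 and Tap2 were not analysed here. The 8 genes were followed in 20 caecum tumours, with 1 array per tumour, as log2 levels per tumour and as treated minus control differences within each of 5 organoid lines.

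The tumours grew in C57BL/6J mice from organoid lines named MTO in the labels. MTO68 and MTO93 were parental lines of genotype LAKTP, MTO140 was an LAKTP line of type LiM, MTO54 was a parental LAKP line and MTO207 a parental LAKT line. Genotype letters are not spelled out in the labels, and no age or sex of the mice was at hand. There were 2 control and 2 treated tumours for each line. Treated mice received 10 mg of galunisertib, which blocks the kinase of the type I TGF-beta receptor, 2 times a day by gavage from day 11 until sacrifice in week 5. The label LY was read as galunisertib, and what the control mice received is not described. The parental lines were first grown under the skin and pieces of those tumours were moved to the caecum, whereas MTO140 was injected below the serosa of the caecum as organoids, so its implantation differs from that of the other lines. Each genotype other than LAKTP is represented by 1 line.

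An array strip held the 4 tumours of 1 line. Lines thus cannot be told apart from strips, and treated and control tumours were compared on the same strip. Each group held 2 tumours, described as biological replicates in the study's design text, and their numbers 1 and 2 are names only. Median log2 values per array ranged from 4.93 to 5.12, and their SDs from 1.46 to 1.83. The array of MTO68 control replicate 2 had an SD of 1.47, against 1.76 to 1.82 for the other 3 arrays of its strip. Whole tumour fragments were used, so a level combines tumour and host cells, and fewer cells of a type cannot be told apart from less RNA per cell. The mean of 10 epithelial marker genes lay between 9.12 and 10.83 over the 20 tumours, and that of 10 T cell marker genes between 5.37 and 6.38.

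MHC class I molecules display peptides from inside a cell to CD8 T cells. The proteasome cuts proteins into peptides, the TAP transporter carries them into the endoplasmic reticulum, and tapasin, the product of Tapbp, holds an empty heavy chain at the transporter while a peptide is loaded. Interferon-gamma exchanges the catalytic proteasome subunits for the immunoproteasome subunits Psmb8, Psmb9 and Psmb10 and induces Nlrc5, which acts at class I promoters together with factors that bind the neighbouring X and Y elements. H2-K1 and H2-D1 encode the classical class I heavy chains, and H2-T23 encodes the heavy chain of Qa-1, which presents leader peptides of class I molecules to inhibitory receptors of natural killer and T cells.

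The promoters of 4 of these genes are shown because the genes moved together between tumours, as described further on. The sequences are from RefSeq on build GRCm38.p6 and run from 250 bases before to 50 bases after the annotated start, on the strand of the gene. They cover chr17:34000298-34000597 on the minus strand for H2-K1 (the first of 2 listed starts), chr17:35262844-35263143 on the plus strand for H2-D1, chr17:36032652-36032951 on the minus strand for H2-T23 and chr17:34187281-34187580 on the minus strand for Psmb9. Capitals mark matches, on either strand, to the motifs named after the sequences.
H2-K1: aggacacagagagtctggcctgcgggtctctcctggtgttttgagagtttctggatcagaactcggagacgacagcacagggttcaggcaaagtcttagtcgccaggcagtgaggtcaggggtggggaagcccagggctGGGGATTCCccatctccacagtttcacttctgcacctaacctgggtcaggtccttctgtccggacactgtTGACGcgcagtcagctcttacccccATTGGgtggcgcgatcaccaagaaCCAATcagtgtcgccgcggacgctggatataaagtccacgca
H2-D1: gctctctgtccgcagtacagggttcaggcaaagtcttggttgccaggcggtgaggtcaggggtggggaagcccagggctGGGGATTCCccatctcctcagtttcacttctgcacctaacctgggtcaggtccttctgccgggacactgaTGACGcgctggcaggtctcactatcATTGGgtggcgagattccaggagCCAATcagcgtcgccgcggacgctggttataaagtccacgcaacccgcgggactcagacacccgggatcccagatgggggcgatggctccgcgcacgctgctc
H2-T23: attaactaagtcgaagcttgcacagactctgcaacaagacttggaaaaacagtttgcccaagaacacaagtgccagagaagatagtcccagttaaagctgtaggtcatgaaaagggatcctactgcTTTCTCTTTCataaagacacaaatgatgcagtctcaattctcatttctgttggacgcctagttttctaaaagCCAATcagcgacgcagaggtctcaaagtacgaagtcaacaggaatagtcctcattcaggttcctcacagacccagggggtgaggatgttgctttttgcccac
Psmb9: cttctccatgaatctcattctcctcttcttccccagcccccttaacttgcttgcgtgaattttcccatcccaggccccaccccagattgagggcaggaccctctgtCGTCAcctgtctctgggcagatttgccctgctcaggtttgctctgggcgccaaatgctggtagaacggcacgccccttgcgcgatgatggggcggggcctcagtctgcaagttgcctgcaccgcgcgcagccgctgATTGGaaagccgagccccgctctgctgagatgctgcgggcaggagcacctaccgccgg

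In H2-K1 and H2-D1, GGGGATTCC, a kappa B type motif, was followed 70 bases on by TGACG, the core of the X2 element, and TGACG was followed 25 bases on by ATTGG, the reverse complement of the Y box CCAAT. These spacings were the same in both genes, while the CCAAT that follows ATTGG lay 24 bases on in H2-K1 and 23 in H2-D1. The 2 windows, set against each other without gaps at the shift with the most identical bases, matched at 176 of 240 positions (73.3%). RefSeq promoters were at hand for 8 of the 10 genes. TGACG was present in 4 of these 8 windows (H2-K1, H2-D1, Psmb9 and Tap1) and in 20.8% of 32851 RefSeq promoters of the same length, and CCAAT in 6 of 8 against 37.4%. Psmb9 and Tap1 start on opposite strands and their windows overlap, so their matches are the same bases. GGGGATTCC was present in 2 of 8 windows against 0.25% of all promoters. GAAA and GAAA 2 bases apart, a strict form of the core of an interferon response element, was matched in H2-T23 only, against 3.44%. Variants of this element were not searched for, so a window without a match is not shown to lack one. TTCNNNGAA, the motif that STAT factors bind, was matched in Psmb8 only, against 8.3%. Psmb8 had neither TGACG nor CCAAT, and Psmb10 had no match to any of these motifs. These matches describe letters in a window and do not show binding.

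The 8 genes varied between tumours by unequal amounts. H2-K1 ranged from 12.05 to 12.67 over the 20 tumours, H2-D1 from 11.14 to 12.05 and H2-T23 from 7.87 to 9.83. Tapbp ranged from 9.24 to 11.17, Psmb8 from 8.21 to 10.73, Psmb9 from 7.48 to 9.24 and Psmb10 from 8.20 to 9.49. Nlrc5 had the widest range, from 5.15 to 8.63. The SD between the 2 tumours of a group, pooled over the 10 groups, was 0.136 for H2-K1 and 0.156 for H2-D1, lay between 0.312 and 0.580 for H2-T23, Tapbp and the 3 immunoproteasome genes, and was 0.839 for Nlrc5. H2-K1 and H2-D1 lie near the top of the array's scale, whose maxima were between 13.10 and 13.19. Their probe sets also carry the platform's mark for cross-hybridisation, and 5 further probe sets are assigned to both genes together.

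**Figure D1:**
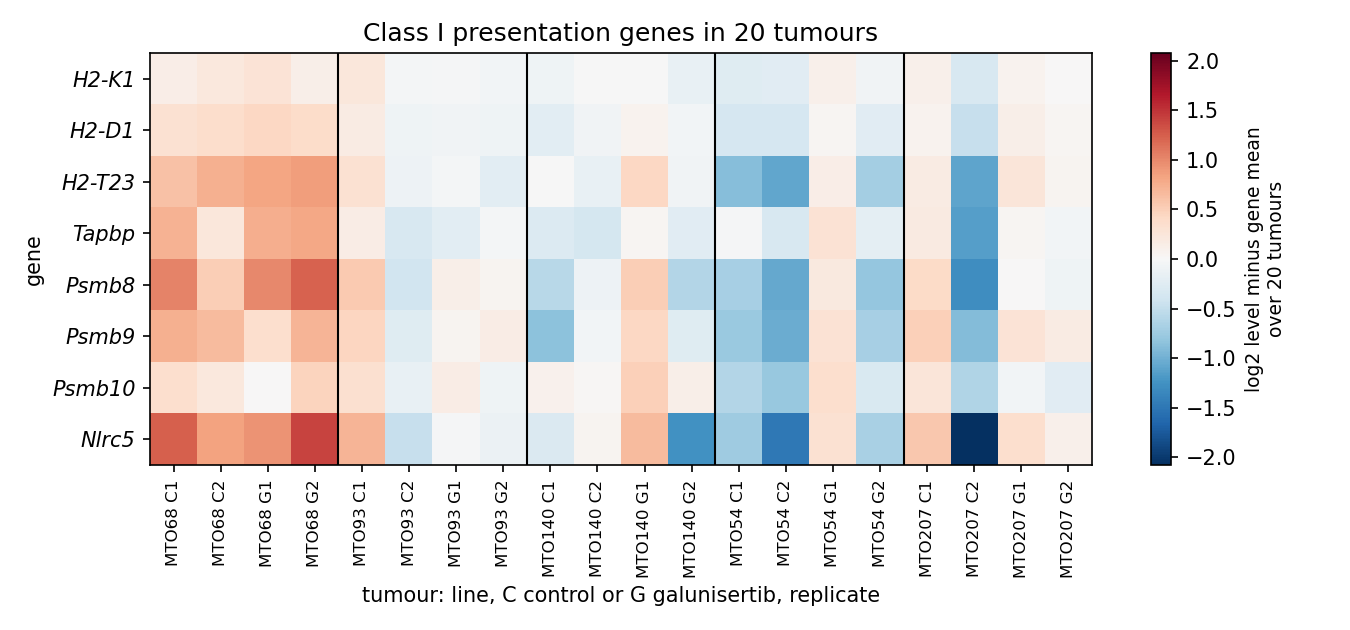
Heat map of the log2 level of 8 class I presentation genes (rows) in 20 tumours (columns, 4 per line, C control and G galunisertib), each gene shown relative to its mean over the 20 tumours. The 4 MTO68 tumours are above the mean for all 8 genes, and the column of MTO207 control replicate 2 is below it for all 8.

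Treated and control tumours were compared over the 5 lines first, to ask whether inhibition of TGF-beta signalling went with a change in class I presentation genes. None of the 8 genes passed the test. All 8 had a higher mean level in treated tumours, by 0.05 to 0.33 on the log2 scale with a median of 0.27, where the median over all 15556 genes tested was 0.00 and 50.3% of them were higher in sign. The genes move together between tumours, so the shared sign is not 8 separate observations. By limma with the line as a block, 0 of 8 genes passed an adjusted p of 0.05 against 0 of all genes tested (0%), and 0 of 8 had an unadjusted p under 0.05 against 7.96% of all genes. The median difference was 0.13 without MTO207 control replicate 2, and between 0.13 and 0.34 when each tumour was left out in turn.

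Among the heavy chains, H2-K1 had levels of 12.05, 12.36 and 12.62 (lowest, median and highest) in 10 control tumours and of 12.24, 12.39 and 12.67 in 10 treated tumours, which differed by 0.05 (SE 0.07, adjusted p = 0.795). H2-D1 had levels of 11.14, 11.54 and 11.99 in control tumours and of 11.38, 11.66 and 12.05 in treated tumours, which differed by 0.13 (SE 0.07, adjusted p = 0.689). H2-T23 had levels of 7.87, 8.91 and 9.71 in control tumours and of 8.26, 9.06 and 9.83 in treated tumours, which differed by 0.30 (SE 0.16, adjusted p = 0.669). The ranges of treated and control tumours overlapped over most of their length for all 3 heavy chains. The second probe set of H2-T23, dimmer and uncorrelated with the first (r = -0.0022 over 20 tumours), gave a difference of -0.05. The 5 probe sets shared by H2-K1 and H2-D1 gave differences between -0.05 and 0.16.

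Tapbp had levels of 9.24, 10.22 and 11.10 in control tumours and of 10.14, 10.37 and 11.17 in treated tumours, which differed by 0.24 (SE 0.14, adjusted p = 0.689), and its second probe set gave 0.26. The lowest levels of Tapbp were in control tumours, and the ranges overlapped above them.

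The immunoproteasome genes Psmb8 and Psmb9 replace the chymotrypsin-like and caspase-like subunits of the standard proteasome, and Psmb10 the trypsin-like one. Psmb8 had levels of 8.21, 9.26 and 10.54 in control tumours and of 8.71, 9.59 and 10.73 in treated tumours, which differed by 0.32 (SE 0.21, adjusted p = 0.690). It was the 1 gene of the 8 that was higher in treated tumours of all 5 lines, by 0.01 to 0.57. The smallest of these differences, in MTO93, was 0.01 (SE 0.51) and turned to -0.010 with arrays centred on their median. Psmb9 had levels of 7.48, 8.36 and 9.24 in control tumours and of 7.82, 8.74 and 9.22 in treated tumours, which differed by 0.30 (SE 0.19, adjusted p = 0.690). Psmb10 had levels of 8.20, 9.05 and 9.34 in control tumours and of 8.67, 9.06 and 9.49 in treated tumours, which differed by 0.18 (SE 0.14, adjusted p = 0.722). The medians of Psmb10 in treated and control tumours nearly coincided, and its mean difference came from the lower end of the control range.

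Nlrc5, the class I transactivator, had levels of 5.15, 7.10 and 8.47 in control tumours and of 5.97, 7.43 and 8.63 in treated tumours. Its difference was 0.33 (SE 0.31, adjusted p = 0.750), with a 95% interval from -0.32 to 0.99. Nlrc5 was higher in 3 of 5 lines, as were H2-K1 and Psmb10, and H2-D1, H2-T23, Tapbp and Psmb9 were higher in 4 of 5. The 95% intervals of all 8 genes included 0, and their upper ends lay between 0.19 for H2-K1 and 0.99 for Nlrc5.

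**Figure D2:**
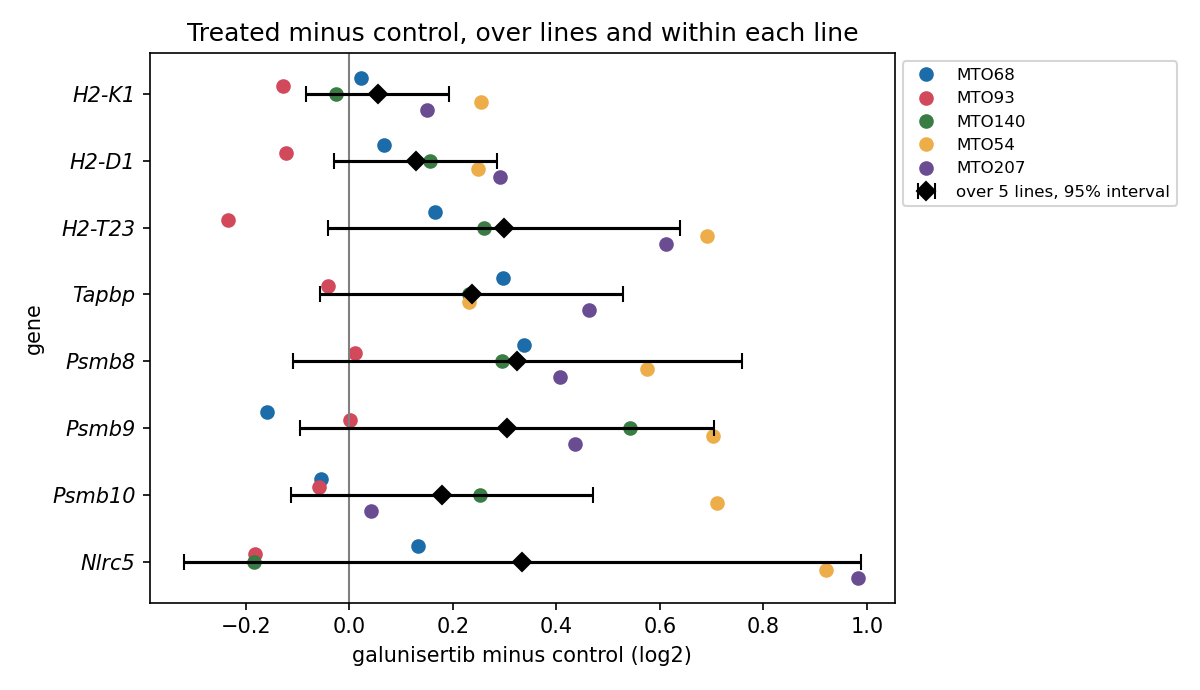
Galunisertib minus control (log2, x axis) for each gene (y axis): black diamonds are the estimates over 5 lines with 95% intervals, and coloured points are the differences of the 5 lines (2 treated minus 2 control tumours). Every interval includes 0, and the points of MTO54 and MTO207 lie to the right of 0 for all 8 genes.

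Within the lines, the direction varied. The members' median difference was 0.63 in MTO54 and 0.42 in MTO207, where all 8 genes were higher in treated tumours (53.2% and 45.8% of all genes were higher there). It was 0.24 in MTO140 and 0.10 in MTO68, where 6 of 8 were higher (51.1% and 52.4% of all genes), and -0.09 in MTO93, where 2 of 8 were higher (53.2%). None of the 40 differences passed by limma, against 2.01% of all genes in MTO68, 0.00643% in MTO140 and 0% in MTO93, MTO54 and MTO207. In MTO68, 5 of the 6 positive differences turned negative after quantile normalization of the deposited values. No gene passed a test of whether the treatment difference varied between lines (limma F test, 0 of 8 against 0.0643% of all genes, adjusted p between 0.659 and 0.975).

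In MTO54, the LAKP line, treated and control tumours did not overlap for 6 of the 8 genes, with treated tumours higher, against 17.8% of all genes. Psmb10 had levels of 8.39 and 8.20 in control tumours and of 9.34 and 8.67 in treated tumours, which differed by 0.71 (SE 0.30, adjusted p = 0.999). H2-T23 had levels of 8.09 and 7.89 in control tumours and of 9.10 and 8.26 in treated tumours, which differed by 0.69 (SE 0.36, adjusted p = 0.999). Nlrc5 had levels of 6.49 and 5.74 against 7.53 and 6.54, a difference of 0.92 (SE 0.72, adjusted p = 0.999). In each of the 3 genes, treated replicate 1 was the highest tumour of the line and treated replicate 2 lay closer to the controls. Other lists differed beside the members in MTO54, with 0 genes called: 12 of 13 interferon-gamma response genes (median 1.31), 13 of 14 type I interferon response genes (0.65), all 8 MHC class II genes (0.28) and all 10 T cell markers (0.25) were higher in sign in treated tumours, and 7 of 8 fibroblast (-0.43) and all 8 endothelial markers (-0.48) were lower. Leukocyte markers were lower for 3 of 5 genes (-0.11) and macrophage markers for 8 of 10 (-0.14). Dendritic cell markers were higher for all 5 genes (0.13) and cytotoxic markers for 5 of 6 (0.32). The part of these lists in the class I differences was not tested.

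In MTO207, the LAKT line, 0 of 8 genes had both treated tumours above both controls, against 26.3% of all genes. Nlrc5 had levels of 7.77 and 5.15 in control tumours and of 7.56 and 7.32 in treated tumours, which differed by 0.98 (SE 0.72, adjusted p = 0.677). H2-T23 had levels of 9.15 and 7.87 in control tumours and of 9.22 and 9.03 in treated tumours, which differed by 0.61 (SE 0.36, adjusted p = 0.654). The treated tumours lay close to control replicate 1, and control replicate 2 was lower. Without control replicate 2 the Nlrc5 difference in this line was -0.33, and that of H2-T23 was -0.03 without control replicate 2 and 1.25 without control replicate 1. Of the other lists in MTO207, all 13 interferon-gamma response genes (median 0.64) and 9 of 10 epithelial markers (0.50) were higher in sign, and 9 of 10 T cell markers (-0.23) and 7 of 8 fibroblast markers (-0.28) were lower, with 0 called. All 10 proteasome activator and constitutive subunit genes (0.40), 7 of 8 loading genes (0.37) and 8 of 14 type I interferon response genes (0.09) were also higher. Cytotoxic markers were lower for 5 of 6 genes (-0.17).

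In MTO140, an LAKTP line, H2-D1, Tapbp and Psmb10 had both treated tumours above both controls (3 of 8, against 8.32% of all genes), and the largest difference in the line was that of Psmb9, 0.54 (SE 0.44, adjusted p = 1.00), from control levels of 7.66 and 8.45 and treated levels of 8.94 and 8.26. Nlrc5 in MTO140 had treated levels of 7.87 and 5.97, which spanned the control levels of 6.93 and 7.28. In MTO68, H2-D1, H2-T23 and Tapbp had treated tumours above both controls (3 of 8, against 31.2% of all genes). In MTO93, no member's treated tumours lay wholly above or wholly below the controls, against 18.1% and 14.4% of all genes, and differences ran from -0.23 for H2-T23 to 0.01 for Psmb8.

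None of the other genes of the pathway that were tested passed over 5 lines. Of the other class I heavy chain genes 6 of 11 tested were higher, with a median of 0.00. H2-Q1 differed by 0.85 (SE 0.31, adjusted p = 0.487) and Hfe, an iron regulator with a class I fold, by -0.12 (SE 0.07, adjusted p = 0.665). Of the loading, chaperone and trimming genes 7 of 8 were higher, with a median of 0.11, Sec61b of the endoplasmic reticulum translocon by 0.41 (SE 0.12, adjusted p = 0.287) and the peptide-trimming enzyme Erap1 by 0.23 (SE 0.11, adjusted p = 0.641). All 10 proteasome activator and constitutive subunit genes were higher, with a median of 0.23, among them Psme3, an activator subunit, by 0.30 (SE 0.13, adjusted p = 0.580) and the standard catalytic subunit Psmb5 by 0.28 (SE 0.12, adjusted p = 0.590). Of the regulators of class I transcription 10 of 13 were higher, with a median of 0.15, and the interferon signalling factors Irf9 and Irf8 differed by 0.28 (SE 0.17, adjusted p = 0.690) and 0.24 (SE 0.16, adjusted p = 0.690).

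Interferon-responsive genes were also higher in sign, with 0 called. Of the interferon-gamma response genes 12 of 13 were higher, with a median of 0.45, led in order of p by the T cell attracting chemokines Cxcl9, 1.01 (SE 0.59, adjusted p = 0.686), and Cxcl11, 0.35 (SE 0.21, adjusted p = 0.689). All 14 type I interferon response genes were higher, with a median of 0.34, and Irf7, a transcription factor of that response, differed by 0.52 (SE 0.18, adjusted p = 0.434) and Oasl1 by 0.35 (SE 0.13, adjusted p = 0.487). Of 8 MHC class II genes 6 were higher, with a median of 0.04, and H2-DMb1 and Cd74, which act in class II peptide loading, differed by 0.16 (SE 0.18, adjusted p = 0.786) and 0.17 (SE 0.22, adjusted p = 0.808). Cell type markers differed beside the class I genes. All 8 fibroblast markers were lower, with a median of -0.67, and all 10 epithelial markers higher, with a median of 0.24, and the mean level of the fibroblast list ran from 7.66 to 9.28 in control and from 7.24 to 8.34 in treated tumours. The epithelial list ran from 9.12 to 10.73 in control and from 9.67 to 10.83 in treated tumours. T cell markers were higher for 6 of 10 genes (median 0.04), leukocyte markers for 3 of 5 (0.08), cytotoxic markers for 5 of 6 (0.17), macrophage markers for 3 of 10 (-0.05), dendritic cell markers for 1 of 5 (-0.03), B cell markers for 4 of 4 (0.17) and endothelial markers for 1 of 8 (-0.24). None of these markers passed, nor did any other gene tested. At an unadjusted p under 0.05 by limma were 8 of 8 fibroblast, 4 of 8 endothelial and 3 of 10 epithelial markers, against 7.96% of all genes. So was 1 of 10 T cell markers, and 0 of the leukocyte, cytotoxic, macrophage, dendritic and B cell markers. The part of these markers in the class I differences was not tested.

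Levels in the control tumours were then compared between lines. MTO68 had the highest control mean of the 5 lines for all 8 genes, against 15.6% of all genes tested, and MTO54 the lowest for 7 of 8, against 15.2%. Tapbp was lowest in MTO207. The genes move together between tumours, so these counts are not 8 separate observations. No gene passed the test over all 5 lines (limma F test, 0 of 8 against 2.8% of all genes), with adjusted p from 0.0689 for H2-T23 and 0.0823 for H2-D1 to 0.199 for Tapbp. At an unadjusted p under 0.05, 4 of 8 genes were past the threshold, against 36.4% of all genes.

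Of the 10 pairs of lines, MTO68 against MTO54 was the 1 pair in which members passed, with 2 of 8 against 2.22% of all genes. Over the 10 pairs 2 of 80 differences passed, against 4.73% of those of all genes. This share includes MTO140 against MTO207, where 0 of 8 members and 40.1% of all genes passed. The SDs of the array values were 1.83 and 1.66 in the MTO140 controls and 1.46 in both MTO207 controls, and the part of this spread was not tested. H2-T23 had levels of 9.58 and 9.71 in the control tumours of MTO68 and of 8.09 and 7.89 in those of MTO54, a log2 difference of 1.65 (SE 0.36, 3.15-fold, limma adjusted p = 0.0250, from 0.00740 to 1 over 28 alternatives). H2-D1 had levels of 11.93 and 11.99 in MTO68 and of 11.28 and 11.26 in MTO54, a log2 difference of 0.69 (SE 0.17, 1.61-fold, limma adjusted p = 0.0470, from 0.00536 to 1 over 28 alternatives). Control tumours of these lines did not overlap for any of the 8 genes, with MTO68 higher, against 14.8% of all genes. These are again not 8 separate observations. The calls rest on few tumours. H2-T23 passed in 23 of 28 alternatives and H2-D1 in 5 of 28, and both were lost without MTO54 control replicate 1 (adjusted p = 0.159 and 0.284), without MTO54 control replicate 2 (0.0972 and 0.127) or without MTO68 control replicate 2 (0.0679 and 0.0832). H2-D1 was also lost without any 1 of the MTO93 or MTO140 tumours or any 1 treated tumour, with adjusted p between 0.0525 and 0.0765. The second probe set of H2-T23 gave a difference of 0.32 (adjusted p = 0.517).

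The other 6 genes differed between MTO68 and MTO54 in the same direction and did not pass. Nlrc5 had levels of 8.47 and 8.05 in MTO68 and of 6.49 and 5.74 in MTO54, a difference of 2.14 (SE 0.72, adjusted p = 0.179). Psmb8 had levels of 10.54 and 10.02 against 8.81 and 8.45, a difference of 1.65 (SE 0.51, adjusted p = 0.133), and Psmb9 differed by 1.59 (SE 0.44, adjusted p = 0.0825). Psmb10 differed by 0.98 (SE 0.30, adjusted p = 0.133), Tapbp by 0.66 (SE 0.34, adjusted p = 0.457) and H2-K1 by 0.42 (SE 0.14, adjusted p = 0.186). For these genes too, both MTO68 tumours were above both MTO54 tumours.

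Between these extremes the order from high to low was MTO93, MTO140, MTO207 for 6 of the 8 genes, the exceptions being Psmb9, in which MTO207 stood above MTO140, and Tapbp, with MTO93, MTO54 and MTO140. No 2 neighbours in the order of any gene differed by limma (adjusted p of 0.232 or more). The 2 control tumours of MTO207 were far apart, as in Nlrc5 at 7.77 and 5.15. When the level of a line was taken over all 4 of its tumours, H2-D1, H2-T23, Tapbp and Psmb8 passed the F test, against 55.4% of all genes, and 16 of the 80 differences of a gene between 2 lines passed, against 20.3% of those of all genes. All 16 had MTO68 as the higher line, with 3 of 8 genes against MTO93 (33.4% of all genes), 3 of 8 against MTO140 (14.3%), 5 of 8 against MTO54 (17%) and 5 of 8 against MTO207 (48.2%). All 4 MTO68 tumours lay above all 4 MTO54 tumours for 6 of 8 genes (all but Tapbp and Psmb10), against 7.04% of all genes.

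**Figure D3:**
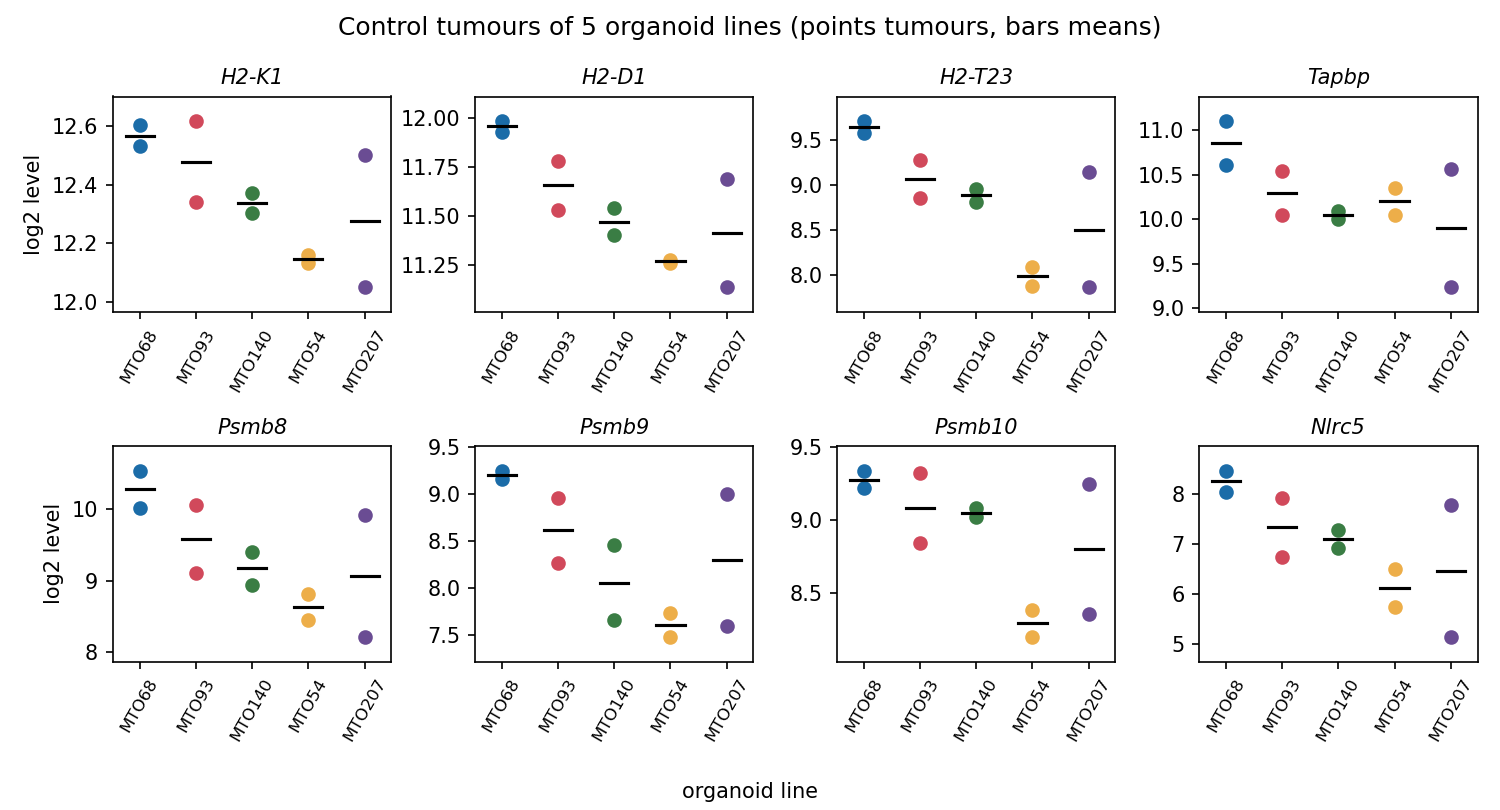
Log2 level (y axis, one scale per panel) of each gene in the 2 control tumours of each organoid line (x axis); points are tumours and bars are means. MTO68 has the highest mean in all 8 panels, and the 2 MTO207 tumours are the farthest apart in each panel.

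Other genes differed between MTO68 and MTO54 controls as well. Of all 15556 genes tested, 346 (2.22%) passed and 8822 were higher in sign in MTO68. Of 14 type I interferon response genes, all higher in MTO68 with a median of 1.80, 6 passed, with Usp18, which dampens interferon signalling, at 3.74 (SE 0.57, adjusted p = 0.00351), Zbp1 at 2.81 (SE 0.54, adjusted p = 0.0141), Ifit2 at 2.71 (SE 0.54, adjusted p = 0.0180) and Rsad2 at 2.60 (SE 0.59, adjusted p = 0.0329). Of the interferon-gamma response genes 11 of 13 were higher, with a median of 1.67, and 1 passed, the immunity-related GTPase Irgm2, at 2.82 (SE 0.59, adjusted p = 0.0228). Stat2 and Irf9, which act in type I interferon signalling, passed among the 13 regulators at 2.50 (SE 0.39, adjusted p = 0.00388) and 1.26 (SE 0.28, adjusted p = 0.0323). None of the other class I heavy chain, loading, proteasome or MHC class II genes passed, with medians of 0.40, 0.25, 0.06 and 0.92. Markers of other cells differed beside them. All 10 T cell markers were higher in sign in MTO68, with a median of 0.45, and 1 passed, Cd3d at 0.89 (SE 0.20, adjusted p = 0.0339). Of 6 cytotoxic markers 5 were higher, with a median of 0.79, and 1 passed, Gzma, a granzyme of cytotoxic lymphocytes, at 4.01 (SE 0.54, adjusted p = 0.00173). B cell markers were higher for 2 of 4 genes (median -0.0016), leukocyte markers for 4 of 5 (0.42), macrophage markers for 7 of 10 (0.06) and epithelial markers for 3 of 10 (-0.02), and all 8 fibroblast and all 8 endothelial markers were lower (-0.59 and -0.52). The SDs of the array values were 1.76 and 1.47 in the MTO68 controls and 1.72 and 1.60 in the MTO54 controls. The part of these cell types and of the array spread in the class I difference was not tested.

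Replicate tumours of one group often differed in the whole set of class I genes at once. In MTO207 control tumours, replicate 1 was above replicate 2 for all 8 genes, against 49.8% of all genes. The gap was 2.63 for Nlrc5, 1.70 for Psmb8, 1.40 for Psmb9, 1.33 for Tapbp, 1.28 for H2-T23, 0.88 for Psmb10, 0.55 for H2-D1 and 0.45 for H2-K1 on the log2 scale. MTO207 control replicate 2 was the lowest of all 20 tumours for 6 of the 8 genes, against 8.52% of all genes, and MTO54 control replicate 2 was the lowest for Psmb9 and Psmb10. The arrays of the MTO207 control pair had the same SD to 2 decimals (1.46), and the median gap over all genes was -0.0013.

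All 8 genes also differed in one direction between the replicates of MTO93 control (gaps of 0.25 to 1.19, against 49.1% of all genes), MTO140 galunisertib (0.13 to 1.90, against 49.9%), MTO54 galunisertib (0.18 to 1.00, against 44.4%) and MTO207 galunisertib (0.06 to 0.24, against 51.4%). Nlrc5 had the widest gap in MTO93 control, MTO140 galunisertib and both MTO207 groups. In MTO54 galunisertib the gaps of Psmb8, Nlrc5 and Psmb9 were 1.00, 0.99 and 0.99. The other groups had mixed signs. Replicate 1 was higher for 5 of 8 genes in MTO68 control (51.6% of all genes) and 7 of 8 in MTO54 control (46.7%). It was higher for 3 of 8 in MTO140 control (56.9%), 2 of 8 in MTO68 galunisertib (50.4%) and 6 of 8 in MTO93 galunisertib (49.85%).

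Marker lists differed between the same pairs of tumours. In MTO207 control, replicate 1 was higher for all 13 interferon-gamma response genes (mean gap 2.74), all 14 type I interferon response genes (1.17), all 5 leukocyte markers (1.49), 9 of 10 macrophage markers (1.13), 6 of 8 MHC class II genes (1.05), 5 of 6 cytotoxic markers (0.85) and 7 of 10 T cell markers (0.26), and lower for 8 of 10 epithelial markers (-0.58). In MTO140 galunisertib, all 13 interferon-gamma response genes were higher in replicate 1 (2.16), as were all 5 leukocyte markers (0.73), all 8 MHC class II genes (0.70) and 4 of 6 cytotoxic markers (0.52). The mean gap there was 0.17 for T cell and -0.11 for epithelial markers. Type I interferon response genes were higher in replicate 1 of that group for 5 of 14 genes (-0.10). In MTO54 galunisertib, 12 of 13 interferon-gamma response genes were higher in replicate 1 (1.08), beside all 5 leukocyte markers (0.36), all 8 MHC class II genes (0.51), 5 of 6 cytotoxic markers (0.33) and 8 of 10 epithelial markers (0.39), with mean gaps of 0.14 for T cell and 0.08 for macrophage markers. Of the type I interferon response genes 7 of 14 were higher in replicate 1 of MTO54 galunisertib (-0.06). In MTO93 control all 13 interferon-gamma response genes were higher (0.94), as were all 5 leukocyte markers (0.30) and 11 of 14 type I interferon response genes (0.38). Mean gaps in MTO93 control were 0.23 for MHC class II genes and -0.10 for T cell markers. In MTO54 control all 13 interferon-gamma response genes (1.53) and 4 of 5 leukocyte markers (0.81) were higher in replicate 1, beside 7 of 8 class I genes (median gap 0.22). Interferon-gamma response genes were higher in replicate 1 for 7 of 13 genes in MTO68 control (0.34) and for 1 of 13 in MTO68 galunisertib (-0.76). They were higher for 1 of 13 in MTO140 control (-1.03) and 3 of 13 in MTO93 galunisertib (-0.15). Leukocyte markers also differed in groups where the class I genes had mixed signs. In MTO68 control all 5 (1.18) and 9 of 10 macrophage markers (1.19) were higher in replicate 1, beside 5 of 8 class I genes (median gap 0.10). All 10 epithelial (1.04) and all 8 fibroblast markers (1.24) were higher there too, and the array SDs were 1.76 and 1.47. In MTO140 control all 5 (0.22) and 9 of 10 macrophage markers (0.35) were higher in replicate 1, beside 3 of 8 class I genes (median gap -0.10). There, all 10 epithelial (0.43) and 7 of 8 fibroblast markers (0.15) were higher as well, with array SDs of 1.83 and 1.66. The part of leukocyte content and of the array spread in these gaps was not tested. Ifng itself was below the level filter.

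**Figure D4:**
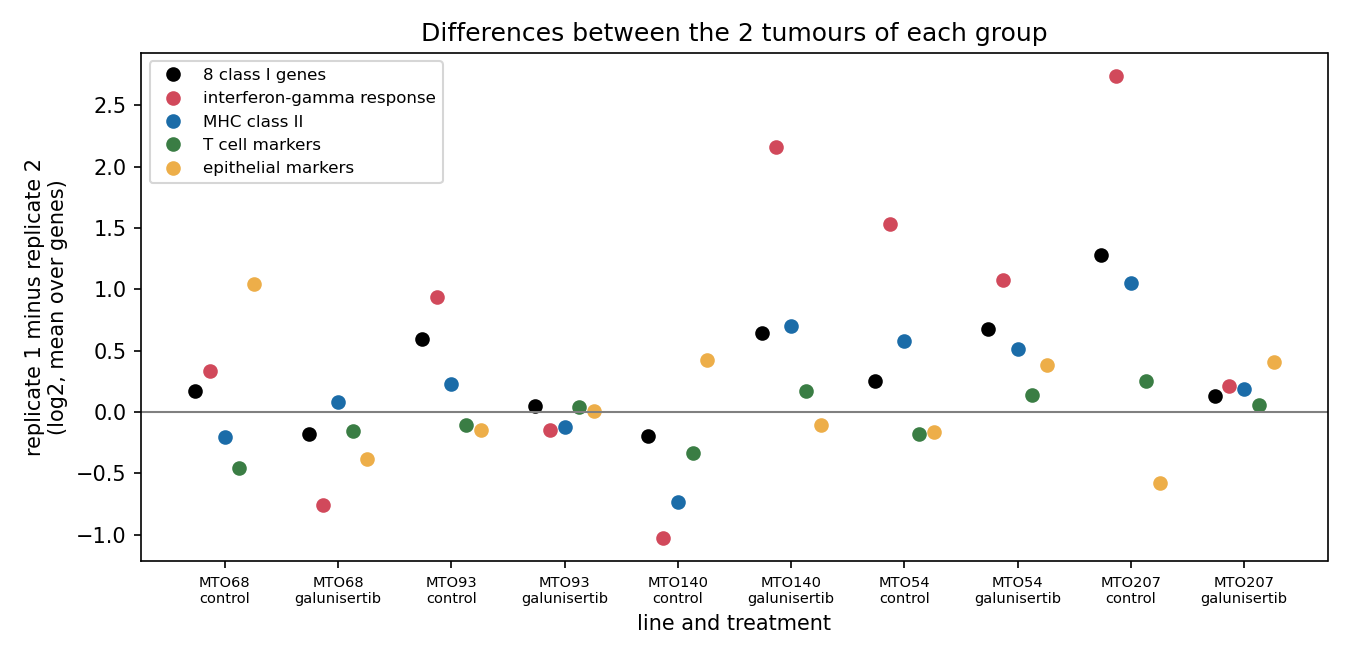
Replicate 1 minus replicate 2 (log2, y axis) in each of the 10 groups (x axis), as the mean over the 8 class I genes and over the genes of 4 lists. The class I mean and the interferon-gamma response mean have the same sign in 9 of 10 groups, and the gap is widest in MTO207 control at 2.74 for the interferon-gamma list.

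Across the 20 tumours, the level of Nlrc5 was correlated with those of the other 7 genes. Pearson's r was 0.96 with Psmb8, 0.91 with H2-K1, H2-D1 and H2-T23, 0.90 with Psmb9, 0.87 with Tapbp and 0.79 with Psmb10. The permutation p was 1e-05, the smallest the permutations can give, for 6 genes and 6e-05 for Psmb10 (two-sided, adjusted over the 7 relations 1.17e-05 and 6e-05). Spearman's rho lay between 0.75 for Psmb10 and 0.96 for Psmb8 (permutation p from 1e-05 to 0.00027, adjusted from 1.4e-05 to 0.00027). Tumours of one line share a strip, which these permutations do not take into account. With each line centred on its mean, r lay between 0.81 and 0.94. Without the 2 tumours farthest from the median of Nlrc5, MTO207 control replicate 2 and MTO54 control replicate 2, r lay between 0.65 for Psmb10 and 0.95 for Psmb8, and after quantile normalization between 0.66 and 0.90.

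Within the lines, over 4 tumours each, r with Nlrc5 was positive for all 7 genes in MTO93 (0.88 to 0.97), MTO140 (0.42 to 0.96), MTO54 (0.86 to 0.96) and MTO207 (0.91 to 1.00). In MTO207, control replicate 2 lay far below the other tumours in Nlrc5. It was at 5.15, against 7.77 in control replicate 1 and a mean of 7.44 in treated tumours, and r without it was not computed for this line. MTO68 was the exception. There r was 0.84 with Psmb8, 0.81 with Psmb10, 0.71 with Tapbp and 0.57 with Psmb9, but 0.07 with H2-T23, -0.31 with H2-D1 and -0.85 with H2-K1. The heavy chains varied little in MTO68, with H2-K1 between 12.51 and 12.67 and H2-D1 between 11.93 and 12.05, while Nlrc5 ran from 8.05 to 8.63. Over all 28 pairs of the 8 genes r lay between 0.62 and 0.96 with a median of 0.89, and between 0.73 and 0.95 with a median of 0.86 after centring each line. The pair H2-K1 and H2-D1 may share signal through cross-hybridising probes.

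**Figure D5:**
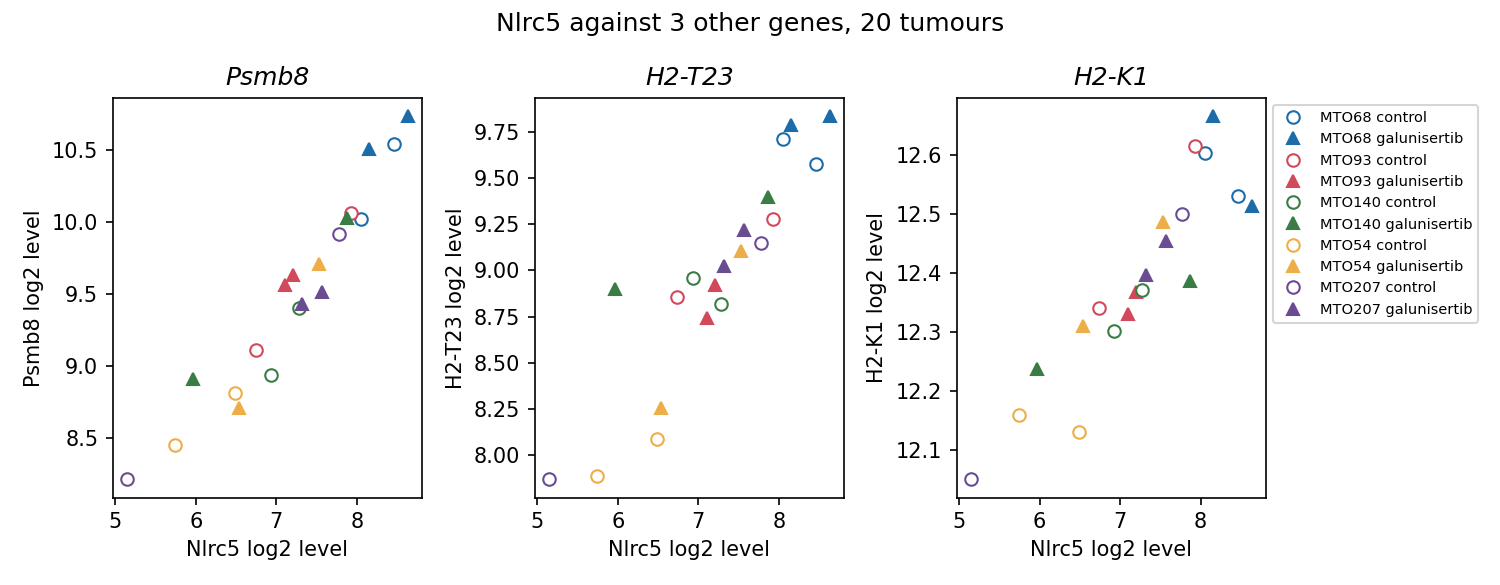
Log2 level of Psmb8, H2-T23 and H2-K1 (y axes) against that of Nlrc5 (x axis) in 20 tumours; open circles are control and filled triangles galunisertib tumours, coloured by line. Treated and control tumours lie along one band in each panel, and MTO207 control replicate 2 is at its lower end with Nlrc5 at 5.15.

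The genes whose line-centred levels were most like the mean of the 8 genes over 20 tumours were H2-T10 (r = 0.97), a nonclassical class I gene, Ifi47 and Irf1 (0.94 each), H2-Q4 (0.94), Parp14 and Igtp (0.93 each), and Gbp2, Gbp7, Irgm2 and Psme1 (0.92 each). Irf1 is an interferon-induced transcription factor, Psme1 encodes a subunit of the proteasome activator PA28, and Igtp, Gbp2, Gbp7 and Irgm2 encode interferon-induced GTPases. By list, the median r with the mean of the 8 genes was 0.89 for 13 interferon-gamma response genes, 0.78 for MHC class II genes, 0.60 for leukocyte markers, 0.49 for proteasome genes, 0.47 for type I interferon response genes and 0.37 for macrophage markers. It was 0.30 for cytotoxic markers, 0.26 for the regulators, 0.23 for the loading genes, 0.18 for T cell markers and for the other heavy chain genes, 0.09 for epithelial, -0.08 for fibroblast and -0.13 for endothelial markers, beside -0.02 over all genes tested. Within the MHC class II list, r ran from -0.32 to 0.90. None of the 10 most like genes passed the test of treated against control tumours over 5 lines, with differences from 0.17 for Irf1 (SE 0.16, adjusted p = 0.744) to 0.68 for Gbp2 (SE 0.50, adjusted p = 0.716).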

How the data were processed

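The values are the deposited log2 levels per probe set, and the authors made them with RMA and affy (no versions given), according to the submitters' processing notes. RMA subtracts background, normalises by quantiles and combines the probes of a set. Each array measured the biotin-labelled RNA of 1 of the 20 tumours, per the labels. The platform annotation assigned 28898 of 45141 probe sets to exactly one symbol, and the one of highest mean was used for each of 17097 genes. The 15556 genes with 2 or more arrays above 4.16, the 25th percentile of the table, were tested. All 8 class I genes with a probe set passed this filter on all 20 arrays. Low probe sets carry little signal over background, and the number of arrays limits the precision of every value.

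Tests used limma 3.58.1 (R 4.3.3, lmFit and eBayes with a trend). The model over 5 lines held treatment and line as a block, and a second model, of 10 group means with 1 common spread, gave all other differences and both F tests. Adjusted p-values are two-sided values from limma after Benjamini-Hochberg correction over the 15556 genes, with a threshold of 0.05. Correlations were tested by 100000 permutations with scipy 1.17.1. The code was tested on simulated data. The members and gene lists were chosen with earlier results of these data known. All members were named with their values. From each list, up to 4 genes that passed were named, else the 2 of smallest p, and of the genes most like the members the first 10, passing over Gm and Rik symbols. Plots were drawn with matplotlib 3.10.9. Alternatives covered the filter, the probe set per gene, the array scaling, eBayes without trend, array weights, each tumour or line left out, other treatments of the line, and the level of a line over all its tumours.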

Additional observations from a re-analysis of the deposited data

How the results depend on the processing

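No paired analysis was possible because the labels give no replicate numbers. The count of members that passed stayed at 0 over 5 lines, within lines and for the difference of the treatment effect between lines in all alternatives run, and, aside from leaving out single tumours, 60 comparison-level values were unchanged and 9 moved. Where a tumour was left out, the lone tumour of its group was assumed to vary like the other groups. Of the 80 differences of a member between 2 lines in control tumours, 2 passed (4.73% of those of all genes), against 1 with no filter on dim genes, with the second probe set of each gene, with arrays centred on their median or with eBayes without trend, 0 with array weights, 6 after quantile normalization (3.96% of those of all genes), 16 with the level of a line over all its tumours (20.3%), and 0 to 4 when each tumour was left out (0 without either MTO54 control tumour, 4 without MTO207 control replicate 1). The F test over lines in control tumours passed 0 members, against 2 after quantile normalization (5.97% of all genes), 4 with all tumours of a line (55.4%), and 0 to 1 when each tumour was left out (H2-T23 without either MTO68 control, MTO140 control replicate 2 or either MTO207 control). The causes were not tested. The second probe set of Psmb8 lay below the filter.

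Over 5 lines, H2-T23 turned to -0.053 with its second probe set, and no other member changed sign in the alternatives run. Aside from leaving out single tumours, 19 single-gene values reversed, all but that one within a line, 8 values of the 2 called differences between MTO68 and MTO54 no longer passed, and 452 were unchanged. With the second probe set, H2-T23 was -0.16 in MTO68, -0.019 in MTO140 and -0.21 in MTO207, Psmb9 was 0.27 in MTO68 and -0.043 in MTO93, and H2-K1 was 0.11 in MTO140. With the mean of probe sets, H2-K1 was -0.15 in MTO68 and 0.11 in MTO140 and Psmb9 was 0.056 in MTO68. With arrays centred on their median, Psmb10 was 0.038 in MTO68 and Psmb8 and Psmb9 were -0.010 and -0.020 in MTO93. After quantile normalization, H2-K1 was -0.0052, H2-D1 -0.14, H2-T23 -0.30, Psmb8 -0.011 and Nlrc5 -0.40 in MTO68, and Psmb10 was -0.25 in MTO207.

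With each tumour left out in turn, some within-line differences took both signs. In MTO68 they ran from -0.053 to 0.099 for H2-K1, -0.34 to 0.018 for Psmb9, -0.28 to 0.17 for Psmb10 and -0.11 to 0.37 for Nlrc5. In MTO93 they ran from -0.27 to 0.0092 for H2-K1, -0.25 to 0.0031 for H2-D1, -0.29 to 0.21 for Tapbp, -0.46 to 0.49 for Psmb8, -0.34 to 0.35 for Psmb9, -0.30 to 0.18 for Psmb10 and -0.77 to 0.41 for Nlrc5. In MTO140 they ran from -0.10 to 0.050 for H2-K1, -0.26 to 0.85 for Psmb8 and -1.14 to 0.77 for Nlrc5, and in MTO54 from -0.020 to 0.48 for Tapbp. In MTO207 they ran from -0.075 to 0.38 for H2-K1, -0.026 to 1.25 for H2-T23, -0.20 to 1.13 for Tapbp, -0.44 to 1.26 for Psmb8, -0.26 to 1.14 for Psmb9, -0.40 to 0.48 for Psmb10 and -0.33 to 2.30 for Nlrc5.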
